A study of Mus musculus with 2 samples.

Results

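Blood cell microRNAs (miRNAs) were measured in the limbs of mouse embryos at embryonic day 15.5, by small RNA sequencing of whole limb tissue. They are 6 of the 1973 miRNA genes in the count tables, chosen by symbol, with earlier results of these data known. The genes are Mir451a and Mir144 (red cell lineage), Mir223 (myeloid cells), and Mir155, Mir146 and Mir150 (lymphocytes and other immune cells). All 6 had a row in the tables. The mice were of strain B6NCrl, healthy, with no transgene, deletion or treatment named in the labels. The series has 1 group of 2 biological replicates, with males and females pooled in each. Replicate 1 pooled 78 embryos and replicate 2 pooled 62. With no second stage or tissue, levels are described and the replicates are compared with each other.

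A miRNA is cut from a hairpin precursor to a mature strand that guides an Argonaute protein to messenger RNAs, chiefly through its seed, the bases from position 2 to 8. Mir144 and Mir451a are cut from 1 primary transcript that the red cell factor GATA1 switches on, and miR-451a is exceptional in being cut by Argonaute 2 instead of Dicer. Mir223 is induced as granulocytes and monocytes mature and restrains neutrophil activity. Mir155 is induced in activated macrophages and lymphocytes, Mir146 (whose mature strands are named miR-146a) dampens Toll-like receptor signalling, and Mir150 accumulates in mature B and T cells and represses Myb. At this stage the liver is the main site of blood formation, and the limb holds circulating red cells and tissue macrophages.

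The sequences below give a mature strand of each gene, from RefSeq on GRCm38.p6, written 5′ to 3′ with the seed in capitals. For the genes with 2 listed arms, the arm usually described as the main product is printed. The tables count reads per gene, so how many came from either arm is not known here. For Mir150 the 5p arm, usually described as its main product, was not analysed here, and the 3p arm is printed only as the entry of the reference table. The Mir150 counts are not to be read as counts of that strand.
miR-451a: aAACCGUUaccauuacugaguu
miR-144-3p: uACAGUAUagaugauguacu
miR-223-3p: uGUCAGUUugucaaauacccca
miR-155-5p: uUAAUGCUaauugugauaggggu
miR-146a-5p: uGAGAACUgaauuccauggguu
miR-150-3p: cUGGUACAggccugggggauag
Of the 10 arms listed for the 6 genes, no 2 had the same seed, so the members form no seed family among themselves. Their lengths ran from 20 to 23 bases. In the same reference table, 1 of the 10 arms shared its seed with an arm of another gene, namely miR-146a-5p with miR-146b-5p.

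On mm10 the erythroid pair is found at chr11:78073005-78073070 for Mir144 (ENSMUSG00000065401.1) and chr11:78073170-78073241 for Mir451a (ENSMUSG00000070065.1), both on the plus strand and in no other gene of that strand. The precursors are 99 bases apart. Their precursors are shown because the mature strands sit differently in them, with the mature strands in capitals.
Mir144: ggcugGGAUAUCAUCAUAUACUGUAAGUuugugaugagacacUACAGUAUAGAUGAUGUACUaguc
Mir451a: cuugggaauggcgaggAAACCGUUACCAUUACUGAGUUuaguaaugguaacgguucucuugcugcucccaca
In the predicted fold (RNAfold, minimum free energy), the Mir144 precursor of 66 bases has an arm on each side of a terminal loop from base 31 to base 36, and neither arm enters the loop. In the Mir451a precursor of 72 bases, the single mature strand runs from base 17 to base 38 and takes in all 4 bases of the terminal loop. In Mir223, Mir155 and Mir146 both arms lie outside the loop, as in Mir144. This is a description of the predicted fold. Mir150 had no precursor in the reference table.

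**Figure D1:**
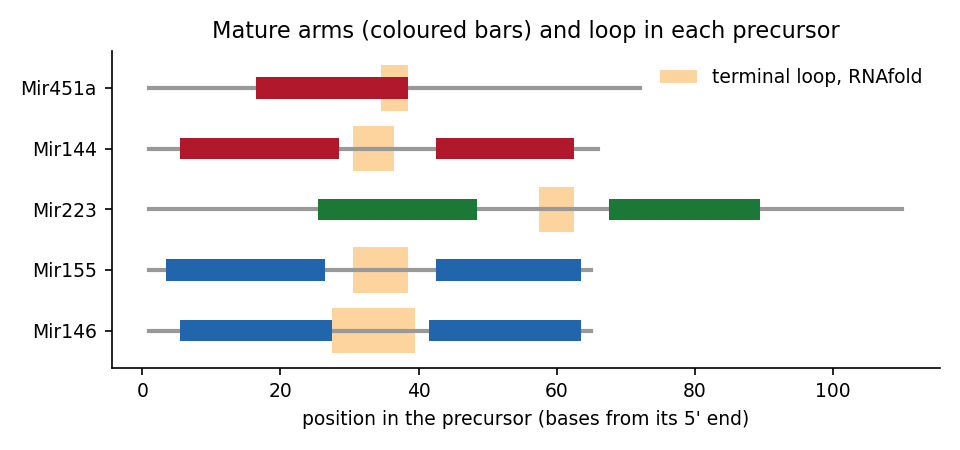
Position of the mature arms (coloured bars: erythroid red, myeloid green, immune blue) and of the predicted terminal loop (orange) along 5 precursors, in bases from the 5′ end of each precursor. The arm of Mir451a, at bases 17 to 38, covers the loop at bases 35 to 38, while the 8 arms of the other 4 precursors lie outside their loops.

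The libraries held 4263630 sense counts (reads on the strand of the miRNA gene) in replicate 1 and 5151214 in replicate 2. Levels are counts per 1000000 of these (CPM), so 1 read is 0.235 CPM in replicate 1 and 0.194 CPM in replicate 2. The markers of limb tissue stood between 4787 and 77287 CPM. They were Mir203 of epidermis, Mir140 of cartilage, Mir206 of skeletal muscle, Mir196b and Mir10b of the Hox clusters and Mir126a of endothelium. Mir122 of liver had 57.5 and 86.2 CPM, Mir302a of pluripotent cells had 9.85 and 8.74 CPM, and Mir124a-1 of neurons had 0 counts in both replicates. Reads with several alignments entered no gene, and whether Mir124a-1 reads would align elsewhere was not tested. Its 0 counts are therefore not read as absence of nerve RNA. The labels do not say whether blood was removed before RNA was extracted.

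Among the red cell genes, Mir451a had 1447 counts in replicate 1 and 1676 in replicate 2, or 339 CPM (Wilson 95% interval 322 to 357) and 325 CPM (310 to 341). The intervals overlapped, and the mean was 332 ± 9.92 CPM (SD, n = 2). Mir144 had 359 and 442 counts, or 84.2 CPM (75.9 to 93.4) and 85.8 CPM (78.2 to 94.2), with a mean of 85.0 ± 1.13 CPM (SD, n = 2). Both genes thus had nearly the same level in the 2 pools. In whole tissue, fewer cells of a type and less RNA per cell cannot be told apart, for these genes and for the others.

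Although cut from 1 primary transcript, the pair was counted unequally. Mir451a had 4.03 times the counts of Mir144 in replicate 1 (exact binomial 95% interval 3.59 to 4.54) and 3.79 times in replicate 2 (3.41 to 4.22). The mean ratio was 3.91 ± 0.169 (SD, n = 2), and both intervals lie above equal counts. Whether the 2 RNAs were captured with equal efficiency was not tested.

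A second gene, Mir451b, is annotated on the opposite strand of the Mir451a precursor, and its hairpin is the exact reverse complement. Because the stem is nearly symmetric, miR-451a matches this opposite hairpin at 18 of its 22 bases, with a longest unbroken run of 16 bases. The tables gave no row for Mir451b. The antisense counts at Mir451a, which would fall on that gene, were 0 in both replicates, which allows up to 0.207% and 0.179% of the Mir451a counts. None of the 6 members had an antisense count in either replicate. The limit was widest for Mir150, at 5.36% and 3.45% of its counts.

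The myeloid gene Mir223 (ENSMUSG00000076066.1, chrX:96242817-96242926, plus strand) is exonic in the noncoding host gene F630028O10Rik. It had 1821 and 2265 counts, or 427 CPM (408 to 447) and 440 CPM (422 to 458), and a mean of 433 ± 8.91 CPM (SD, n = 2). It was the highest of the 6 genes in both replicates. Its counts were 1.26 times those of Mir451a in replicate 1 (1.17 to 1.35) and 1.35 times in replicate 2 (1.27 to 1.44). The lowest CPM of Mir223, in replicate 1, was above the highest CPM of Mir451a, also in replicate 1.

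The order of these leading genes depends on how precursor length is treated. Mature miRNAs are of nearly equal length, and CPM counts reads whatever the length of the precursor. Divided by the annotated precursor (110 bases for Mir223 and 72 for Mir451a), Mir451a came first, with 471 and 452 CPM per 100 bases against 388 and 400 for Mir223. The other 4 genes kept their places.

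Of the immune genes, Mir155 (ENSMUSG00000065397.1, chr16:84714140-84714204, plus strand) is exonic in its host gene Mir155hg. It had 742 counts in replicate 1 and 1119 in replicate 2, or 174 CPM (162 to 187) and 217 CPM (205 to 230). Replicate 2 was the higher, and the intervals did not overlap. The mean was 196 ± 30.5 CPM (SD, n = 2).

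Mir146 (ENSMUSG00000065601.1, chr11:43374397-43374461, minus strand) overlaps no other annotated gene. It had 317 and 389 counts, or 74.3 CPM (66.6 to 83.0) and 75.5 CPM (68.4 to 83.4). The mean was 74.9 ± 0.825 CPM (SD, n = 2), with nearly the same value in both pools.

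The relative of Mir146 on chromosome 19, Mir146b, lies in an intron of Mfsd13a and was counted rarely. It had 0 counts in replicate 1, which allows up to 0.704 CPM, and 4 counts in replicate 2, or 0.777 CPM. The mature 5p strands are shown because they carry the same seed and differ in 2 bases, in capitals.
miR-146a-5p: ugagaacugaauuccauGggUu
miR-146b-5p: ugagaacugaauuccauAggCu
Counted from the 5′ end of miR-146a-5p, the differences are G18A and U21C, and the first 17 bases are identical. The Mir146 precursor shared at least 1 stretch of 20 bases with Mir146b. The other 5 members shared none with another of the annotated miRNA transcripts, on either strand. Mir451b, the reverse complement of Mir451a, was left out of this search for Mir451a. Reads with several alignments were totalled on a line of their own and entered no gene, so a read short enough to fit both copies is in neither count. How many such reads there were is not known from these tables.

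Mir150 (ENSMUSG00000065495.1, chr7:45121757-45121821, plus strand) also overlaps no other annotated gene. It was the lowest of the 6, with 56 counts in replicate 1 and 87 in replicate 2. These are 13.1 CPM (10.1 to 17.1) and 16.9 CPM (13.7 to 20.8), with a mean of 15.0 ± 2.66 CPM (SD, n = 2). The intervals overlapped widely at this depth.

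**Figure D2:**
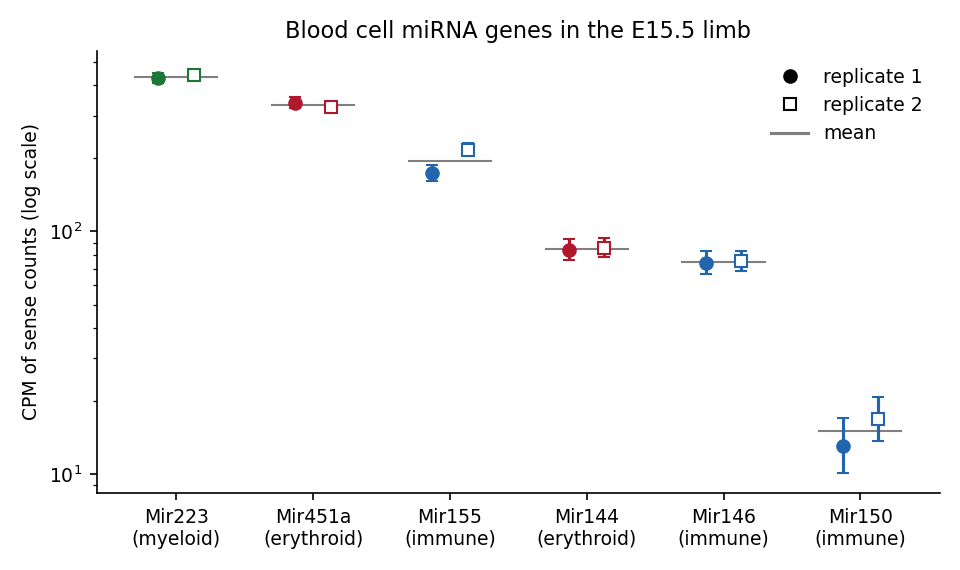
Level of each blood cell gene in each replicate, in CPM of sense counts on a log scale, with Wilson 95% intervals (counting error only) and the mean of the 2 replicates as a grey line. Mir223 is highest at 427 and 440 CPM and Mir150 lowest at 13.1 and 16.9 CPM, and the Mir155 values, 174 and 217 CPM, stand farther apart than their intervals.

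By mean CPM the order was Mir223, Mir451a, Mir155, Mir144, Mir146 and Mir150, and both replicates gave this order. The range from first to last was 28.9-fold. No 2 neighbours in the order had overlapping values. The narrowest step was from Mir144 to Mir146, 1.13-fold between the means, and there the counting intervals did overlap. Within each library the ratio of Mir144 to Mir146 was 1.13 (0.971 to 1.32) and 1.14 (0.989 to 1.31), intervals that include equal counts. With 2 values a gene, no permutation test of these steps was made.

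All 6 genes had at least 10 counts in both replicates, as did 340 of the 1973 genes. Among all genes by mean CPM, Mir223 ranked 123, Mir451a 138, Mir155 160, Mir144 201, Mir146 204 and Mir150 256. The median of the 340 detected genes was 167 CPM, and 3 of the 6 members were above it. Per read of the endothelial Mir126a, whose cells line the vessels, Mir451a had 0.0156 and 0.0142 reads and Mir223 had 0.0197 and 0.0191.

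**Figure D3:**
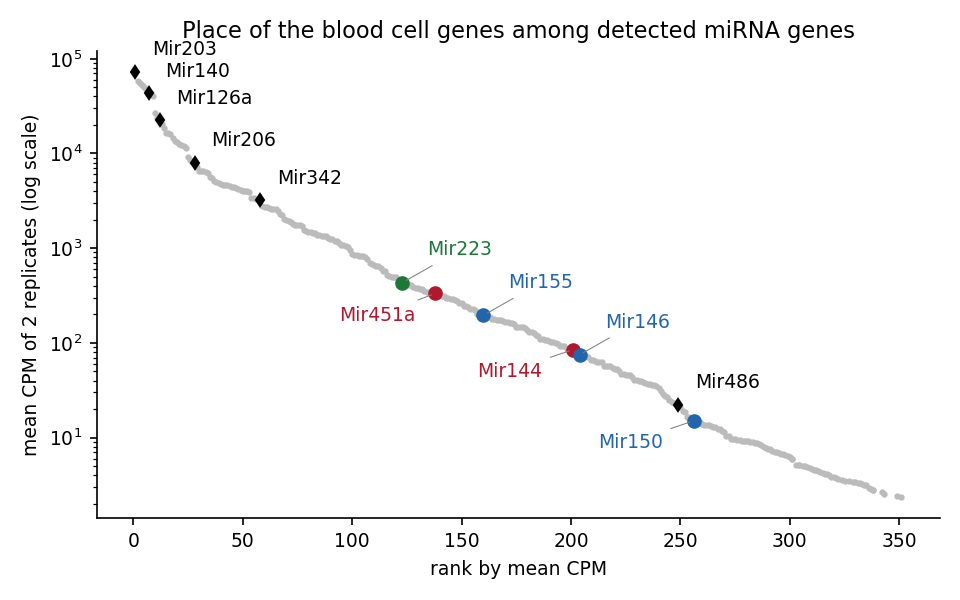
Mean CPM of the 340 detected miRNA genes (grey points, log scale) against their rank among all genes. The 6 members are coloured by lineage (erythroid red, myeloid green, immune blue). Black diamonds mark some limb tissue markers, and Mir342 and Mir486 of the other blood and immune cell genes. The 6 members spread from rank 123 to rank 256, below the limb tissue markers.

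The genes most like each member in level were found by the distance in log2(CPM + 1) over the 2 replicates. For Mir223 they were Mir27a (distance 0.104) and Mir200a (0.126), with 433 ± 22.2 and 410 ± 22.9 CPM. For Mir451a they were Mir186 (0.107) and Mir24-2 (0.142), with 331 ± 14.6 and 349 ± 14.0 CPM. Mir155 was nearest to Mir221 (0.150) and Mir187 (0.204). Mir144 lay nearest to Mir30b (0.0923) and Mir6236 (0.145), Mir146 to Mir137 (0.0669) and Mir505 (0.0715), and Mir150 to Mir193a (0.0398) and Mir1298 (0.209). Likeness over 2 libraries of 1 tissue says only that the levels are close (SD over n = 2 throughout).

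A close relative by seed was also found for miR-144-3p. It shares bases 2 to 7, but not base 8, with miR-101a-3p, a widely expressed miRNA. The shared bases are in capitals.
miR-144-3p: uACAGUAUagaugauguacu
miR-101a-3p: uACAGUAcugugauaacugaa
Mir101a had 453 and 525 counts, or 106 and 102 CPM, against 84.2 and 85.8 CPM for Mir144. In neither replicate was Mir144 the higher of the pair. Mir101b, a gene of like name that was not among the arms found to share these bases, had 1093 and 1305 CPM. The Mir101a level is therefore not that of all miR-101 genes.

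Together the 6 genes had 4742 counts in replicate 1 and 5978 in replicate 2. This was 0.111% of the sense counts (0.108 to 0.114) and 0.116% (0.113 to 0.119), with a mean of 0.114% ± 0.00342 (SD, n = 2). The red cell pair made up 38.1% of these counts in replicate 1 (36.7 to 39.5) and 35.4% in replicate 2 (34.2 to 36.7). Mir223 alone made up 38.4% (37.0 to 39.8) and 37.9% (36.7 to 39.1). The 3 immune genes made up the remainder, 23.5% (22.3 to 24.7) and 26.7% (25.6 to 27.8). The shares within the 6 sum to the whole, so a larger share of one lowers the others.

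**Figure D4:**
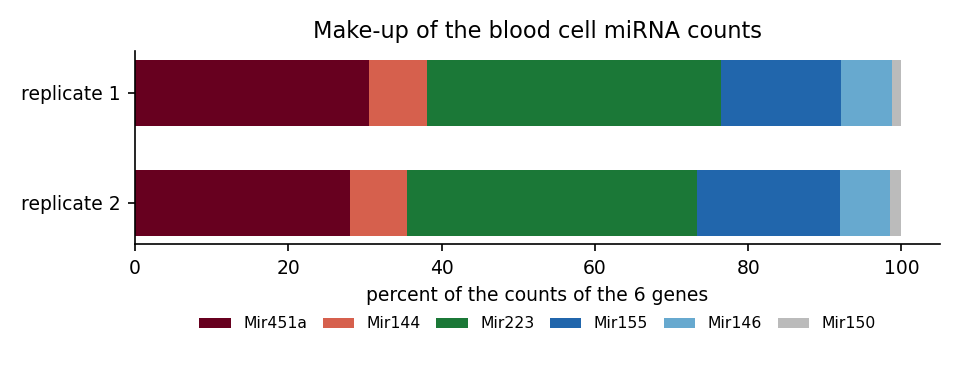
Percent of the counts of the 6 genes taken by each gene, in replicate 1 and replicate 2. Mir223 takes 38.4% and 37.9%, Mir451a 30.5% and 28.0%, and Mir155 15.6% and 18.7%.

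Each gene was then compared between the 2 pools by an exact binomial test (two-sided, given the library totals) and Benjamini-Hochberg adjustment over all 340 detected genes. The test sets 2 libraries against counting noise and does not compare conditions. At an adjusted threshold of 0.05, 1 of the 6 members passed, against a background of 50.9% of the 340 genes tested. The member was Mir155. Genes with more counts pass with smaller differences, so the count of members is read only beside that background. The median log2 ratio, replicate 2 over replicate 1, was 0.03 over the members and 0.02 over all genes tested. The median size of the log2 ratio, whatever its sign, was 0.05 over the members and 0.21 over all.

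Mir155 was 1.25-fold higher in replicate 2 (exact 95% interval 1.14 to 1.37, log2 ratio 0.32, adjusted p = 7.43e-06, exact binomial test). Of the 340 genes, 233 had a smaller log2 ratio in size than Mir155. The ratio of Mir155 to Mir146, its fellow immune gene, was 2.34 in replicate 1 (2.05 to 2.68) and 2.88 in replicate 2 (2.56 to 3.24).

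For the other 5 members the intervals of the ratio included equal levels. The ratio was 0.959 for Mir451a (0.893 to 1.03), 1.02 for Mir144 (0.885 to 1.17) and 1.03 for Mir223 (0.967 to 1.10). It was 1.02 for Mir146 (0.873 to 1.18) and 1.29 for Mir150 (0.909 to 1.83). The Mir150 ratio was of the size seen for Mir155, but rested on 56 and 87 counts (adjusted p = 0.232, exact binomial test). For Mir451a, Mir144, Mir223 and Mir146 a difference between the pools was not detectable beyond the limits of these intervals.

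Mir122, a liver gene, had 1.50 times the level in replicate 2 (1.28 to 1.76, adjusted p = 8.56e-07, exact binomial test). Since the embryonic liver forms blood, its values are given beside those of the red cell genes, which had ratios of 0.959 and 1.02. Mir451a had 5.91 times the counts of Mir122 in replicate 1 (5.15 to 6.79) and 3.77 times in replicate 2 (3.40 to 4.20). Whether liver tissue contributed to the counts of Mir155 was not tested.

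**Figure D5:**
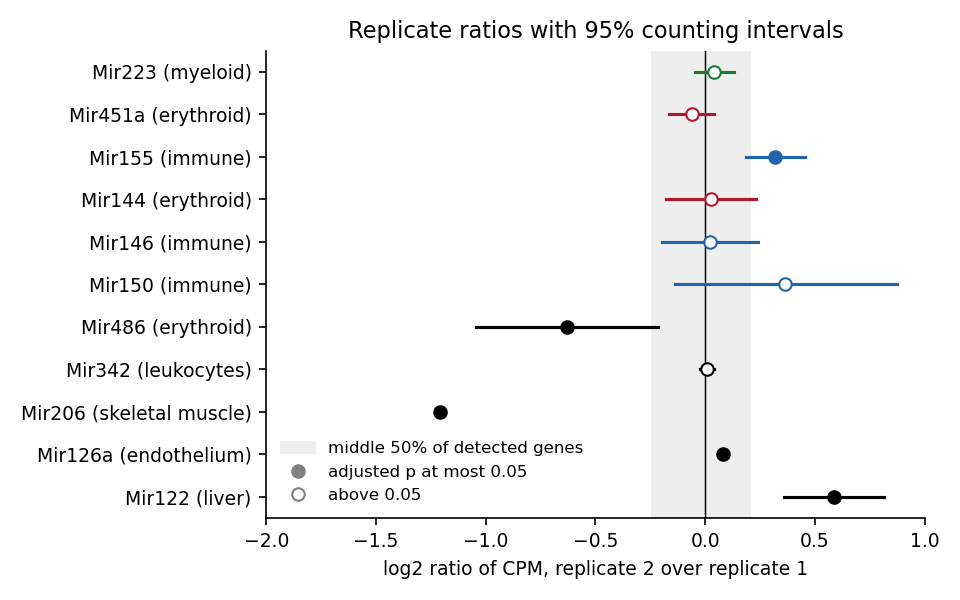
Log2 ratio of CPM, replicate 2 over replicate 1, for the 6 members (coloured by lineage) and for some other genes (black), with exact 95% counting intervals. Filled points passed an adjusted p of 0.05, and the grey band from -0.24 to 0.20 holds the middle 50% of the detected genes, with Mir155 at 0.32 and Mir150 at 0.36 outside it.

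The other blood and immune cell genes formed a list of 9, of which 6 had a row in the tables and 2 had at least 10 counts in both replicates. The highest was Mir342, in an intron of Evl on chromosome 12, a miRNA of lymphocytes and also of neurons. It had 3204 and 3219 CPM, above every member, with a ratio of 1.00 (0.982 to 1.03).

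Mir486, in an intron of the red cell ankyrin gene Ank1, is known both from red cells and from striated muscle. It had 114 and 89 counts, or 26.7 and 17.3 CPM, and was 0.646 times as high in replicate 2 (0.484 to 0.860, adjusted p = 0.00506, exact binomial test). Of the 2 detected genes of the list it was the 1 that passed, beside 50.9% of all genes tested, so the list's count is at the background. The red cell genes Mir451a and Mir144 had ratios of 0.959 and 1.02, and the muscle gene Mir206 had 0.433. The part of muscle in the Mir486 ratio was not tested. Mir3107 is annotated opposite Mir486, where 12 and 10 antisense counts lay. Whether Mir486 reads also fit that opposite strand was not tested, and reads with several alignments entered no gene. The level and ratio of Mir486 thus cover only the reads that were counted there, and may not be those of its mature strand.

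The genes listed for macrophages, Mir511 and Mir147, had few counts. They do not stand for all miRNAs of macrophages, since Mir155, induced in activated macrophages, had 174 and 217 CPM. Mir511, in an intron of the mannose receptor gene Mrc1, had 16 and 6 counts, and Mir147 had 9 and 25. Both fell short of 10 counts in 1 replicate and were not tested. Mir142, a miRNA of all white blood cells, had no row of its own. Its reads would lie on the antisense strand of the Mir142b row, which had 3099 and 3821 antisense counts and 0 sense counts. In each library these were more counts than the 1821 and 2265 sense counts of Mir223, the highest member.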

How the data were processed

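Small RNA below 30 nt was sequenced from total RNA of limb, per the labels. The deposited tables hold raw read counts for each miRNA gene on mm10 with annotation M4, per the deposited README. From the values, the columns are counts on both strands, sense and antisense. Aligner, counter and trimming are not given in the sources used here. Lines naming no gene, 53.6% and 52.5% of the reads, entered no total; reads with several alignments were 29.4% and 29.7%.

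Symbols and positions came from GENCODE M21 on GRCm38, matching 1894 of 1973 identifiers. CPM values, Wilson intervals and exact binomial tests used scipy 1.17.1 in Python 3.11.15, on genes with at least 10 counts in both replicates. The test was checked on simulated data with counting noise only, so the check does not cover variation between pools. With 1 library a side, quasi-likelihood tests had no residual degrees of freedom; edgeR 4.0.16 and DESeq2 1.42.0 (R 4.3.3) gave alternative scaling factors. Precursors were folded with RNAfold 2.7.2. Intervals, and the 3 counts that a count of 0 allows, cover counting error only.

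The members and lists were chosen with earlier results of these data known. Named genes are the 6 members, 9 other blood and immune genes, tissue markers, annotated genes at or near the members, and for each member the 2 nearest genes in log2(CPM + 1). Mir101a and Mir101b were added after the seeds were compared. Mir9-1, a nerve marker, and Mir486b had no row by symbol.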

Additional observations from a re-analysis of the deposited data

Results flagged for a closer look

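Counts on the antisense strand, which no level above uses, stood out at 2 genes of the blood and immune list. Mir142b had 3099 antisense counts in replicate 1 and 3821 in replicate 2, far above the 3 counts that a count of 0 allows. Mir486 had 12 and 10 antisense counts. There were no control samples to set these against.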

How the results depend on the processing

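The replicate comparison kept its outcome for the members. Of 41 recomputed member ratios, under other scalings, strands and count minimums, 41 kept their direction and their side of the threshold. The log2 ratio of Mir155 ran from 0.30 (DESeq2 size factors) to 0.35 (all reads), with adjusted p from 6.09e-07 to 3.00e-05 (exact binomial test), and the smallest adjusted p of another member was 0.168. Mir150 was not tested with at least 100 counts in both. Over all genes 167 to 184 passed, but of 694 genes with at least 1 count in either replicate 24.6% passed, and of 247 with at least 100 counts 67.6%. The summed share of the members moved with its denominator, from 0.114% to 0.0534% of all reads, 0.110% of counts irrespective of strand, and 0.224% of the sense counts without the 10 most abundant genes. Without Mir451a it was 0.0804%, without Mir144 0.105%, without Mir223 0.0703%, without Mir155 0.0941% and without Mir146 0.106%. Leaving out replicate 1 gave a summed share of 0.116% and a ratio of Mir451a to Mir144 of 3.79. Leaving out replicate 2 gave 0.111% and 4.03. No paired analysis was possible because the series has 1 group. Depth limits Mir150 most, with 56 and 87 counts.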
